A study of Mus musculus with 12 samples.

Results

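The levels of 8 transcripts, nearly all non-coding, were followed in pooled sucrose gradient fractions from the mouse mammary tumour line 4T1: the nuclear long RNAs Malat1 and Neat1, the short structural RNAs Rn7sk, Rmrp, Rpph1 and Bc1, and the long RNAs Lncenc1 and C130073F10Rik. They were taken by gene symbol, 8 of 55376 genes listed in the count table and 8 of the 12224 genes that passed the filter for testing. The names had been selected on earlier results of these same libraries, in which several of them were near 0 in polysomal RNA 1 METTL7A1 library was known to stand apart, and Lncenc1 and C130073F10Rik differed widely between the genotypes. Given as a description with no test are therefore the polysomal against sub-polysomal values of all 8 and how these differ between genotypes, the genotype values of Lncenc1 and C130073F10Rik, and the polysomal genotype values of Rn7sk, Rmrp and Rpph1. Where such values are counted as meeting the limits for a call, the count stands beside that of all genes and nothing is read from it.

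The 4T1 cells carried either the empty vector (mock) or a stably transfected, CMV-driven Mettl7a1 cDNA (METTL7A1), and both lines were kept in G418. The sources used here do not say whether either line was 1 clone. Cells received 0.1 mg/ml cycloheximide for 5 min, and the cleared lysate was separated on a sucrose gradient, so RNA that stayed in the pelleted nuclei was not measured. Fractions 3 to 7, with free ribosomal subunits and monosomes, made up the sub-polysomal pool, and the polysomal pool joined fractions 8 to 11, with light and heavy polysomes. Each combination of genotype and pool had 3 libraries (A, B and C for mock cells, D, E and F for METTL7A1 cells), which gives 12 libraries in 4 groups.

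The members have well separated roles. Malat1 lies in nuclear speckles, Neat1 is the scaffold of paraspeckles, and Rn7sk (7SK) holds the elongation factor P-TEFb inactive together with Hexim and Larp7 proteins. Rpph1 is the RNA subunit of RNase P, which trims the 5′ ends of tRNA precursors, and Rmrp is that of RNase MRP, which cuts precursor rRNA in the nucleolus. Bc1 is a cytoplasmic RNA, best known from neurons, where it represses translation initiation, so "nuclear" does not describe it. Lncenc1 is named for its abundance in embryonic stem cells. C130073F10Rik has no role given here. An RNA that sediments with polysomes need not be translated there.

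The label "non-coding" did not hold for every member. C130073F10Rik was annotated as protein coding in both GENCODE M21 and RefSeq. Its longest open reading frame had 201 codons, the same number as the annotated coding sequence, and took up 66.4% of the 913-nt transcript. In Neat1 and Malat1 the longest frames had 126 and 64 codons and took up 1.83% and 2.79% of the transcripts. Lncenc1 held a frame of 149 codons (16.3% of 2764 nt), Rn7sk 1 of 36, Rmrp 1 of 43 and Rpph1 1 of 28 codons, and Bc1 held no ATG with a stop in frame. All 8 are named below by their symbols.

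In the coordinates of the count table (GRCm38), Malat1 (chr19:5795690-5802672) and Neat1 (chr19:5824708-5845478) were neighbours on the minus strand, 22036 bases apart. Rn7sk lay at chr9:78175303-78175633, Rmrp at chr4:43492783-43493063, Rpph1 at chr14:50807449-50807767 and C130073F10Rik at chr4:101890020-101893789, all on the minus strand. Bc1 lay on the plus strand at chr7:144914470-144914637 and Lncenc1 on the plus strand at chr13:97482701-97497007, whereas the GENCODE M21 gene Lncenc1 begins at base 97434970. The Rmrp row joined 2 overlapping GENCODE genes, a lincRNA and a ribozyme, so its counts cannot be assigned to either. Rpph1 began 74 bases from the divergent gene Parp2. Whether the counting used the strand, and how reads with several matches were treated, is not given in the sources used here. Reads of repeat copies of Bc1 and Rn7sk may therefore be split, lost or added to these rows.

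The 4 short RNAs are shown because the results turn on them. The sequences are the RNA sense strand, written as DNA from 5′ to 3′, from GENCODE M21 transcripts on GRCm38. For Bc1 (chr7:144914470-144914637, plus strand, whole) the capitals mark the longest run of A, 23 bases, which divides the 5′ part from the unique 3′ end. Such a run stood in the first 168 bases of 0.0629% of 135207 transcripts of at least that length. For Rn7sk (bases 1 to 300 of 331, chr9:78175334-78175633, minus strand) the capitals mark the 3 copies of GATC, written GAUC in RNA, a motif known from the 5′ hairpin that Hexim binds. GATC reads the same on both strands, and 3 or more copies stood in the first 300 bases of 6.33% of 131058 transcripts. For Rpph1 (bases 1 to 300 of 319, chr14:50807468-50807767, minus strand) the capitals mark a 21-base stretch that occurs in 2 adjacent copies at bases 182 to 223. For Rmrp (whole, 271 bases, chr4:43492788-43493058, minus strand) they mark the longest stretch shared with Rpph1, 9 bases, which stood in the first 271 bases of 0.298% of 132371 transcripts. Only the transcript strand was searched for the A run and the shared stretch.
Bc1: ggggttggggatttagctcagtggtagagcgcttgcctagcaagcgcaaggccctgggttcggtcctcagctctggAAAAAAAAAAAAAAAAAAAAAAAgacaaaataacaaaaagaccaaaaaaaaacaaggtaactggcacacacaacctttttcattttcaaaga
Rn7sk: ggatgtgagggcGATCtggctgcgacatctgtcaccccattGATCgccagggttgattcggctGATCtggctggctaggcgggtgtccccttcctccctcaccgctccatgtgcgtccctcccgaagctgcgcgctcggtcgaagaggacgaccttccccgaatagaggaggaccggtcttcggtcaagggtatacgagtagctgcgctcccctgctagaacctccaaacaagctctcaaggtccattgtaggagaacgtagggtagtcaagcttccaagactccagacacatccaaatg
Rpph1: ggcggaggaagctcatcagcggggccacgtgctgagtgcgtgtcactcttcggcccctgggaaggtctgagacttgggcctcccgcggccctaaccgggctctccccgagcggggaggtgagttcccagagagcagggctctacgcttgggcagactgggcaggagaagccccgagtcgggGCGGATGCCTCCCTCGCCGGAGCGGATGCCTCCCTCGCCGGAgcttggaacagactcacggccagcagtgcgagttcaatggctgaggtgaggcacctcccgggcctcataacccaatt
Rmrp: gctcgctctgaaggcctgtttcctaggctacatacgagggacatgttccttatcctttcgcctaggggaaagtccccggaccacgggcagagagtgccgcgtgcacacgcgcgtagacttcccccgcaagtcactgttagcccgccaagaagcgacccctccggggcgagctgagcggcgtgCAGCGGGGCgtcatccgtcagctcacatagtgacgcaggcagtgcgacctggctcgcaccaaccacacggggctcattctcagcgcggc
A match to these letters is a description of the sequence and not of binding or activity. The GC content of Rpph1, Rmrp and Rn7sk was 67.1%, 64.2% and 58.0%, and that of Bc1 40.5%, with A making up 41.7% of its bases.

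Total counts per library ran from 1817520 (mock sub-polysomal A) to 6966156. Counts of Mettl7a1 ran from 4 to 24 in mock and from 989 to 2436 in METTL7A1 libraries, so it followed the genotype labels. Mammary epithelial markers (6 of 6 detected) summed to 3026 to 6565 CPM per library, whereas leukocyte and endothelial markers summed to at most 0.822 CPM and fibroblast markers to at most 6.01 CPM, with 3 of 5 (Cd3e and Lyz2 among them), 1 of 3 (Kdr) and 1 of 4 (Col3a1) at 0 in all libraries. CPM here means counts scaled to library size with TMM factors. One library stood apart, METTL7A1 polysomal F. The 9 rows of rRNA or rRNA-like sequence, listed after their values were seen, took 3.77% of its counts against 0.195% to 0.478% in the other 5 polysomal libraries. Where a value rests on F it is given with and without it.

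**Figure D1:**
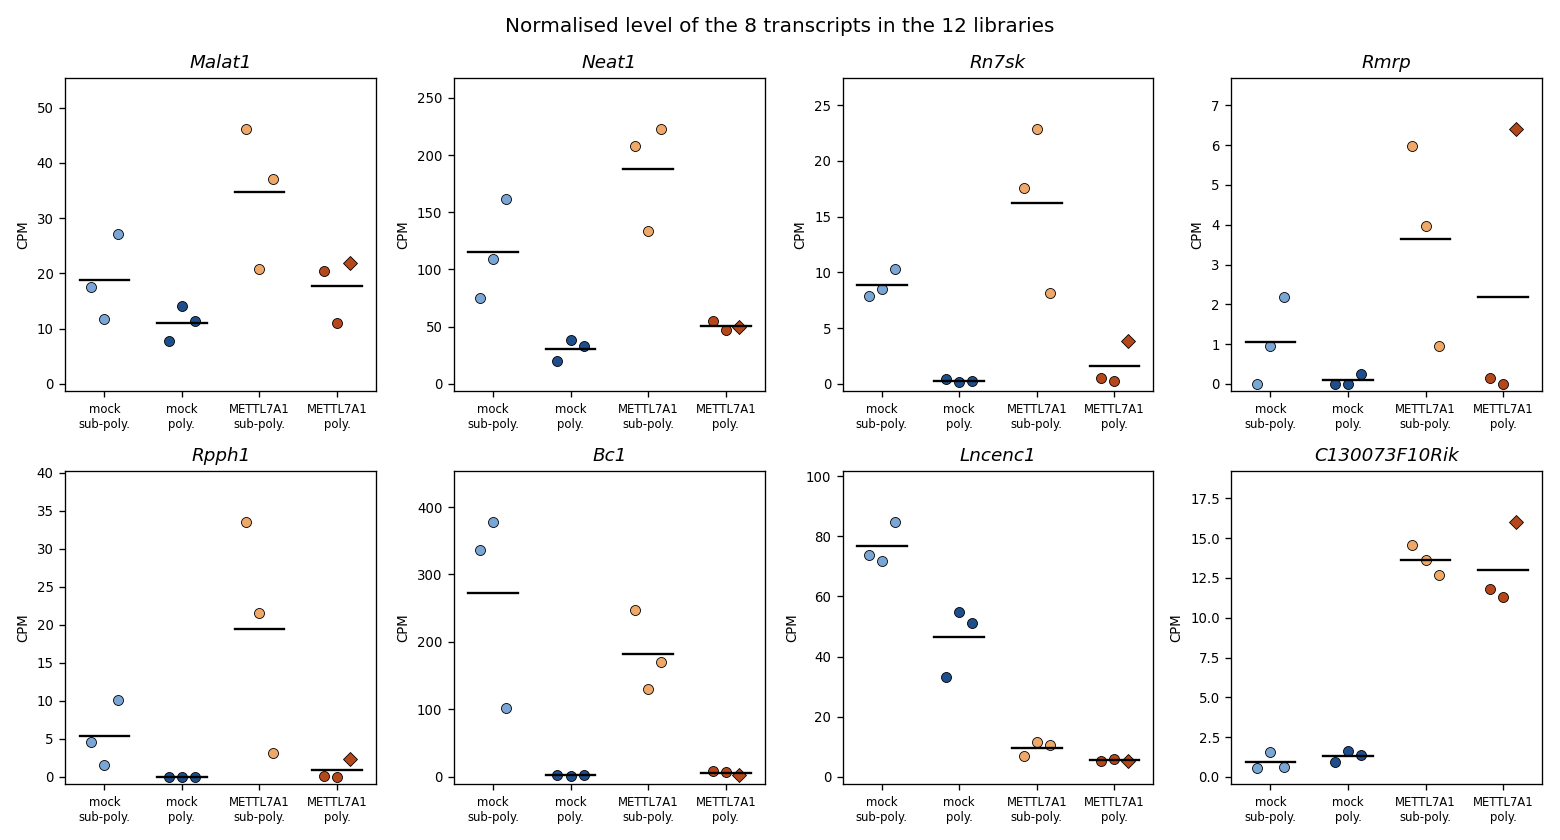
CPM of each of the 8 transcripts (vertical axis, linear, each panel with its own scale) in the 12 libraries by group. Points are libraries, bars are group means, and the diamond is METTL7A1 polysomal F; Bc1, Rn7sk and Rpph1 sit near 0 in polysomal RNA, and in Rn7sk, Rmrp and Rpph1 the diamond lies above the other polysomal points.

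Bc1 had the most counts of the short RNAs, and nearly all of them lay in sub-polysomal RNA. In mock cells its raw counts were 596, 1199 and 515 in sub-polysomal A, B and C and 20, 5 and 19 in polysomal A, B and C. In METTL7A1 cells they were 747, 526 and 709 in sub-polysomal D, E and F and 65, 52 and 13 in polysomal D, E and F. Every polysomal library lay below every sub-polysomal one in both genotypes. The mean level was 272 ± 149 CPM in sub-polysomal and 1.93 ± 1.09 CPM in polysomal RNA of mock cells, and 183 ± 59.7 and 5.92 ± 3.42 CPM in METTL7A1 cells (SD, n = 3 each). The log2 difference was -7.10 (SE 0.53) and -4.90 (SE 0.46). By summed counts sub-polysomal Bc1 was 89.2-fold (95% exact interval 66.2 to 123) and 20.6-fold (17.2 to 24.8) above polysomal Bc1 per unit of depth. With single libraries left out, the mock ratio ran from 63.4 (without sub-polysomal B) to 143 (without sub-polysomal C). The METTL7A1 ratio ran from 16.3 (without polysomal F) to 27.0 (without polysomal D). Intervals from counts cover counting error only.

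Rn7sk had 14 to 92 counts in sub-polysomal RNA and was nearly absent from polysomal RNA in 5 of 6 libraries. Its sub-polysomal counts were 14, 27 and 52 in mock A, B and C and 53, 92 and 34 in METTL7A1 D, E and F. Its polysomal counts were 3, 1 and 2 in mock A, B and C and 4, 2 and 23 in METTL7A1 D, E and F. F alone exceeded 4 counts. The log2 difference between pools was -4.99 (SE 0.72) in mock cells and -3.49 (SE 0.51) in METTL7A1 cells, and -5.26 (SE 0.51) in METTL7A1 cells without polysomal F.

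Rpph1, the RNase P RNA, had 8, 5 and 51 sub-polysomal counts in mock A, B and C and 101, 87 and 13 in METTL7A1 D, E and F. It had 0 counts in all 3 mock polysomal libraries and 1, 0 and 14 in METTL7A1 polysomal D, E and F. Against the floor of 3 counts over the mock polysomal group, mock sub-polysomal Rpph1 was at least 36.2-fold higher per unit of depth. Sub-polysomal C held 51 of those 64 counts, and without it the bound was at least 15.1-fold on 13 counts. Without polysomal A, B or C it was 24.8, 24.7 or 22.9. In METTL7A1 cells the ratio was 18.1 (95% exact interval 10.7 to 32.9). Without polysomal F it was 193 (34.3 to 7679) on 201 sub-polysomal and 1 polysomal count, and without single other libraries it ran from 11.4 (without polysomal E) to 27.0 (without sub-polysomal F).

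Rmrp, the RNase MRP RNA, was the scarcest member, and its groups overlapped. Its counts were 0, 3 and 11 in mock sub-polysomal A, B and C, 0, 0 and 2 in mock polysomal A, B and C, and 18, 16 and 4 in METTL7A1 sub-polysomal D, E and F. In METTL7A1 polysomal D, E and F they were 1, 0 and 38, so 1 library held 38 of 39 counts. The sub-polysomal to polysomal ratio of summed counts was 11.9 in mock cells (2.73 to 108) and 1.31 in METTL7A1 cells (0.819 to 2.11). The mock ratio rested on replicate C: without sub-polysomal C it was 5.24 (0.601 to 62.8) on 3 and 2 counts, and without polysomal C there were 14 counts against 0, at least 5.02-fold over the floor. In METTL7A1 cells leaving out polysomal E gave 0.830 and polysomal D 0.885, below 1. Without polysomal F it was 36.6 in METTL7A1 cells (6.18 to 1482), on 38 and 1 counts.

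Neat1, the paraspeckle scaffold, had at least 133 counts in every library. Its counts were 133, 347 and 821 in mock sub-polysomal A, B and C, and 145, 276 and 267 in mock polysomal A, B and C. In METTL7A1 cells they were 627, 539 and 931 in sub-polysomal D, E and F and 400, 364 and 297 in polysomal D, E and F. After scaling, both polysomal groups lay below their sub-polysomal groups without overlap. The mean was 115 ± 43.8 against 30.3 ± 9.40 CPM in mock and 188 ± 47.6 against 50.5 ± 4.05 CPM in METTL7A1 cells (SD, n = 3). The log2 differences were -1.95 (SE 0.26) and -1.90 (SE 0.25). With library totals in place of TMM factors the latter was -1.43, inside the limit of 1.5 that a call needs.

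Malat1, the neighbouring speckle RNA, differed less between the pools. Its counts were 31, 37 and 137 in mock sub-polysomal A, B and C, 57, 102 and 91 in mock polysomal A, B and C, 139, 84 and 155 in METTL7A1 sub-polysomal D, E and F, and 149, 86 and 130 in METTL7A1 polysomal D, E and F. Mean levels were 18.7 ± 7.77 and 11.0 ± 3.13 CPM in mock sub-polysomal and polysomal RNA, and 34.7 ± 12.8 and 17.8 ± 5.88 CPM in METTL7A1 cells (SD, n = 3). The pools overlapped in both genotypes, at log2 differences of -0.82 (SE 0.33) and -0.96 (SE 0.30). Whether Malat1 and Neat1 differed from each other in their pool change was not tested.

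Lncenc1 and C130073F10Rik had the widest genotype differences of the members in sub-polysomal RNA, and genotype differences were the measure for which they had been chosen. Lncenc1 had 131, 228 and 429 counts in mock sub-polysomal A, B and C and 244, 398 and 413 in mock polysomal A, B and C. It had 21, 46 and 44 in METTL7A1 sub-polysomal D, E and F and 38, 45 and 32 in METTL7A1 polysomal D, E and F. Its mean was 76.8 ± 6.92 against 9.63 ± 2.35 CPM in sub-polysomal RNA and 46.4 ± 11.5 against 5.46 ± 0.292 CPM in polysomal RNA, mock against METTL7A1 (SD, n = 3). The log2 genotype differences were -2.97 (SE 0.21) and -3.08 (SE 0.21), with no overlap.

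C130073F10Rik went the other way. Its counts were 1, 5 and 3 in mock sub-polysomal A, B and C and 7, 12 and 11 in mock polysomal A, B and C. They were 44, 55 and 53 in METTL7A1 sub-polysomal D, E and F and 86, 88 and 95 in METTL7A1 polysomal D, E and F. The log2 genotype differences were 3.88 (SE 0.36) in sub-polysomal and 3.27 (SE 0.26) in polysomal RNA, again without overlap. Between pools it differed by 0.54 (SE 0.50) in mock and by -0.07 (SE 0.20) in METTL7A1 cells, and the latter turned to 0.40 with library totals. Lncenc1 differed between pools by -0.73 (SE 0.17) and -0.84 (SE 0.25), below the limit for a call, though its pools did not overlap. Together with Malat1 they were the members with pool differences below 1 in size in both genotypes.

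A gene was called where its log2 change exceeded 1.5 in size at an adjusted p-value under 0.01. Between the pools, 4 of 8 members (Bc1, Rn7sk, Rpph1 and Neat1) met it as lower in polysomal RNA in mock cells, where 6.86% of the 12224 tested genes did, and the same 4 met it in METTL7A1 cells, where 10.3% did. None met it as higher (0.687% and 1.76% of tested genes). Ranges that did not overlap, with polysomal RNA lower, were found for 5 of 8 members in both genotypes (the same 4 and Lncenc1), against 24.7% and 32.3% of tested genes. The members were chosen for these values, and nothing is read from the counts. Of all tested genes, 84 were called higher and 839 lower in mock cells and 215 and 1265 in METTL7A1 cells; with library totals the splits were 475 to 485 and 1130 to 738, as the median log2 change of all genes moved from 0.05 to 0.45 and from 0.06 to 0.53. With Actb scaling the METTL7A1 split was 81 to 1656.

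**Figure D2:**
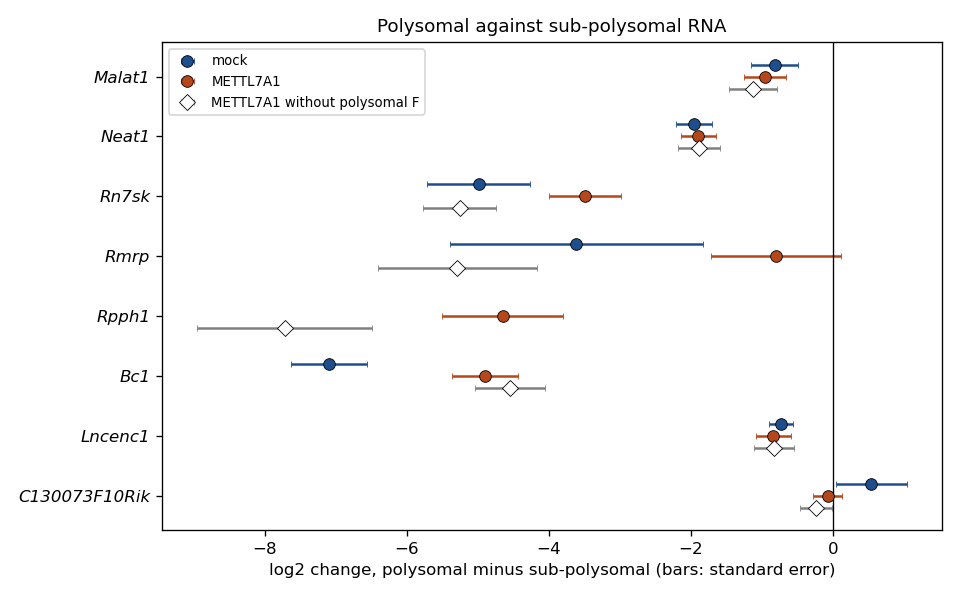
Log2 difference between polysomal and sub-polysomal RNA of the 8 transcripts (points) with standard errors (bars), in mock cells, in METTL7A1 cells and in METTL7A1 cells without polysomal F. Rn7sk moves from -3.49 to -5.26 and Rmrp from -0.80 to -5.29 without F, whereas Neat1 and Bc1 stay near their values; no mock point is drawn for Rpph1, which had 0 polysomal counts there.

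METTL7A1 and mock cells were then compared within each pool, for the members whose choice did not rest on it: Malat1, Neat1, Bc1, Rn7sk, Rmrp and Rpph1 in sub-polysomal RNA and the first 3 of these in polysomal RNA. None met the call in either pool. Rmrp is counted here although it passed the filter mainly through METTL7A1 libraries. The background was 1.5% of tested genes called higher and 1.26% called lower in sub-polysomal RNA, and 0.982% and 1.15% in polysomal RNA, and 0 of 6 and 0 of 3 lie near that background. In sub-polysomal RNA those calls were 183 higher and 154 lower, and 359 and 88 with Actb scaling or 132 and 200 with library totals. In polysomal RNA they were 120 and 140.

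Neat1 had the smallest adjusted p-value of the 6 in sub-polysomal RNA and of the 3 in polysomal RNA. It was 1.60-fold higher in METTL7A1 cells in sub-polysomal RNA (log2 0.68, SE 0.24, adjusted p = 0.0406, 0.00662 to 0.195 over 14 alternatives other than no filter) and 1.67-fold higher in polysomal RNA (log2 0.74, SE 0.25, adjusted p = 0.0495, 0.0188 to 0.164). It alone of those tested fell below 0.05 as higher in each pool, where 16.8% of tested genes did in sub-polysomal and 9.69% in polysomal RNA. In polysomal RNA its METTL7A1 libraries (46.7 to 54.8 CPM) all lay above the mock ones (19.8 to 37.9 CPM). It was 1 of 3 with such a separation there and 0 of 6 had one in sub-polysomal RNA, against 18.9% and 23.5% of tested genes. The size of the change stayed below the limit for a call.

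Malat1 showed a like difference with wider error. It was 1.76-fold higher in sub-polysomal RNA (log2 0.82, SE 0.32, adjusted p = 0.0589) and 1.60-fold higher in polysomal RNA (log2 0.68, SE 0.31, adjusted p = 0.141), and its ranges overlapped in both. In mock cells sub-polysomal C was the highest of its group for Malat1 and Neat1, and in METTL7A1 cells E was the lowest for both.

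Bc1 was the member whose genotype difference was of unlike sign in the 2 pools. It was lower in METTL7A1 sub-polysomal RNA (log2 -0.57, SE 0.37, adjusted p = 0.251) and higher in METTL7A1 polysomal RNA (log2 1.64, SE 0.62, adjusted p = 0.0762), and neither passed. Polysomal D and E held 8.90 and 6.68 CPM, F held 2.19 CPM, and mock A, B and C held 2.73, 0.687 and 2.36 CPM, so F lay inside the mock range. Without F the polysomal difference was 1.99 (SE 0.59, adjusted p = 0.0335), and the adjusted p ran from 0.0297 to 0.282 over 13 alternatives other than no filter. When no filter was set beyond 1 count in total, Bc1 was called in polysomal RNA (adjusted p = 1.92e-07). That setting lowered adjusted p-values widely in this contrast. The smallest over all genes went from 5.44e-13 to 4.68e-180, and those of Neat1 and Malat1 went to 0.000404 and 0.00467. The call of Bc1 under it is therefore not read as added evidence. By summed counts polysomal Bc1 was 3.00-fold (95% exact interval 2.12 to 4.32) higher per unit of depth, on 130 against 44 counts.

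The difference between the genotypes in the pool change, called the shift here, is given for the members as a description. No gene of the 12224 was called for it (0%), 1911 had an unadjusted p below 0.05, and DESeq2 and limma-voom also called 0. At an adjusted p below 0.05 with no limit on the change, the methods differed. The main fit and limma-voom had 0 such genes, and DESeq2 had 368 (152 higher, 216 lower). The main fit had 403 without mock polysomal A, and 159 with no filter. Bc1 had a log2 shift of 2.20 towards polysomes in METTL7A1 cells (SE 0.72). It was 1.5 (SE 1.05) for Rn7sk, 2.81 (SE 2.03) for Rmrp and 3.38 (SE 2.91) for Rpph1. For Neat1 the shift was 0.06 (SE 0.35), for Malat1 -0.14 (SE 0.45), for Lncenc1 -0.11 (SE 0.29) and for C130073F10Rik -0.61 (SE 0.54), and the signs of the first 3 turned when single libraries were left out.

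Rn7sk, Rpph1 and Rmrp had more counts in METTL7A1 than in mock cells, and the difference rested on few libraries. In sub-polysomal RNA the log2 difference was 0.82 (SE 0.43, adjusted p = 0.158) for Rn7sk, 1.64 (SE 0.69, adjusted p = 0.0783) for Rpph1 and 1.37 (SE 1.10, adjusted p = 0.363) for Rmrp. Rmrp reached 1 CPM in METTL7A1 sub-polysomal D and E, METTL7A1 polysomal F and, in mock cells, sub-polysomal C alone. It thus passed the filter mainly through METTL7A1 libraries, and nothing is read from its p-value. Replicate F was the lowest METTL7A1 sub-polysomal library for all 3. Without it Rpph1 was called (log2 2.18, adjusted p = 0.00843, in a range of 0.00843 to 0.402 over 13 alternatives other than no filter), as it was when no filter was set (adjusted p = 1.98e-08). With no filter, adjusted p-values fell for the others too, to 0.00741 for Rn7sk and 0.0469 for Rmrp. In polysomal RNA the 3 were at 29 against 6 counts (Rn7sk), 15 against 0 (Rpph1) and 39 against 2 (Rmrp), METTL7A1 against mock. Without polysomal F the counts were 6 against 6, 1 against 0 and 1 against 2, and the ratio per unit of depth was 1.42 (95% exact interval 0.380 to 5.32) for Rn7sk and 0.712 (0.0121 to 13.7) for Rmrp. Per unit of depth Rpph1 with F was at least 5.08-fold above the mock floor of 3 counts, and Rmrp 19.8-fold above mock (5.12 to 169).

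**Figure D3:**
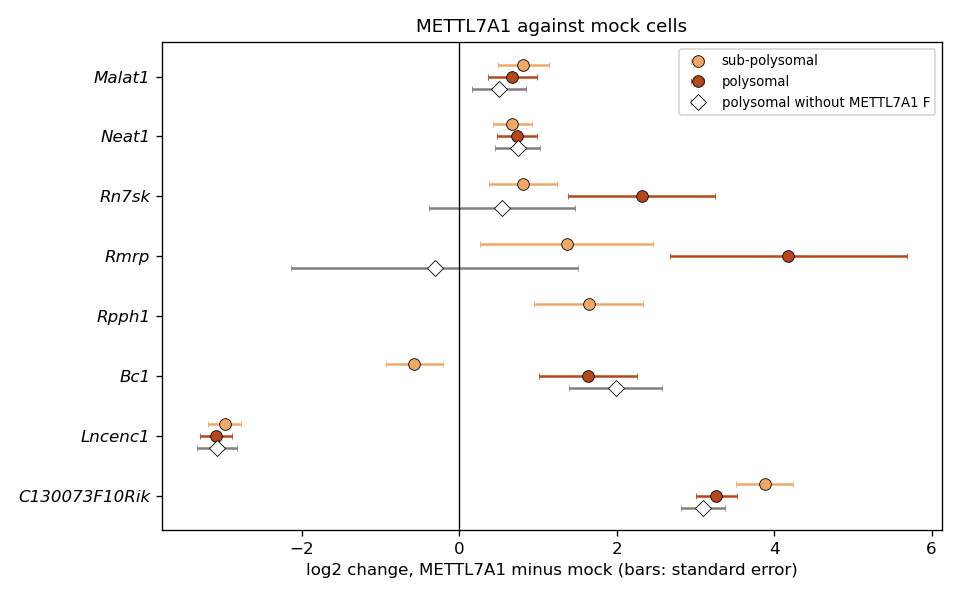
Log2 difference between METTL7A1 and mock cells of the 8 transcripts (points) with standard errors (bars), in sub-polysomal RNA, in polysomal RNA, and in polysomal RNA without METTL7A1 F. Neat1 and Malat1 lie near 0.7 in both pools, Lncenc1 and C130073F10Rik lie far to either side, and the polysomal points of Rn7sk and Rmrp move to 0.55 and -0.31 without F; no polysomal point is drawn for Rpph1, which had 0 mock counts.

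In METTL7A1 polysomal F, 3 members stood apart from the other 5 polysomal libraries. Rmrp was at 6.40 CPM, 25.8 times the highest of the others, Rpph1 at 2.36 CPM, 17.2 times, and Rn7sk at 3.87 CPM, 7.07 times. The members were chosen with F known to stand apart, so these values are a description. The other 5 members did not share this: Malat1 was at 1.07 times the highest of the others, C130073F10Rik at 1.36, Neat1 at 0.913, Bc1 at 0.246 and Lncenc1 at 0.0985 times.

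Rows of ribosomal sequence, listed after their values were seen, were among those that moved with Rn7sk, Rmrp and Rpph1 in F. Of 12224 tested genes, 13.2% were highest in F among the polysomal libraries. For 33 genes (0.270%) F was at least 2 times the highest of the other 5, and for 9 (0.0736%) at least 5 times. The row Gm42418, which overlaps rRNA sequence, had 156438 counts in F and 9617 to 19377 in the other polysomal libraries, and n-R5-8s1 had 1813 against 10 to 173. The mitochondrial 12S rRNA mt-Rnr1 had 2357 against 258 to 528. All mitochondrial genes together took 1.46% of the counts in F, inside the range of the others (0.684% to 2.14%). Summed over Rn7sk, Rmrp and Rpph1, replicate F held 12.2 CPM in its sub-polysomal and 12.6 CPM in its polysomal library. D held 57.0 and 0.822 CPM, and E 48.4 and 0.257 CPM. What these rows have to do with the 3 short RNAs was not tested. Leaving the rRNA-like rows out of the counts moved no member across a call.

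**Figure D4:**
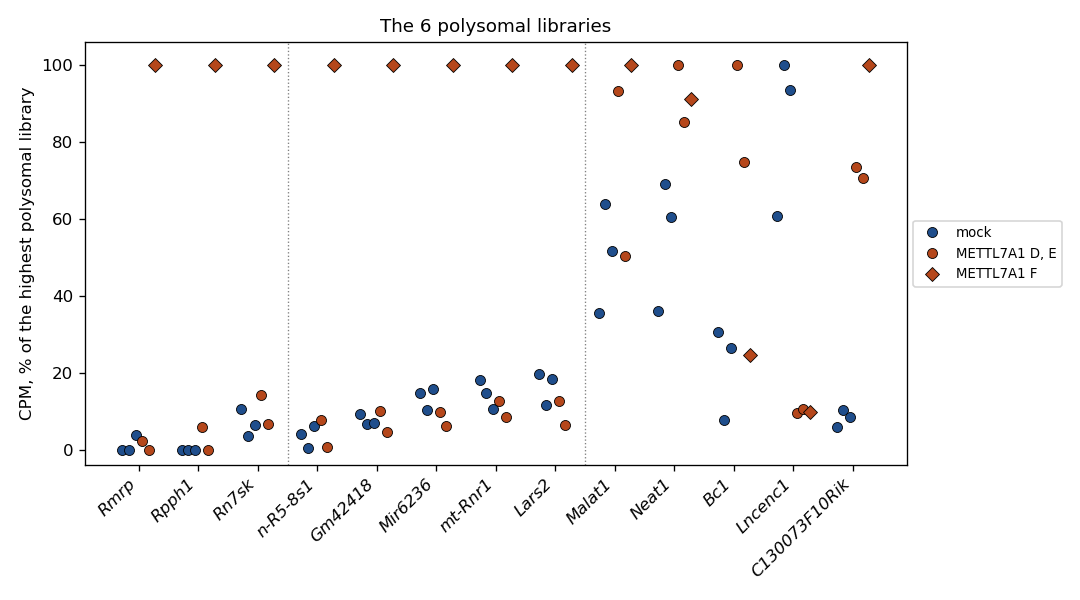
Level of members and of rRNA-like rows in the 6 polysomal libraries (vertical axis, CPM as a percentage of the highest of the 6). METTL7A1 F, the diamond, is the highest library for Rmrp, Rpph1, Rn7sk and all 5 rRNA-like rows drawn, with every other library at or below 20%, but not for Neat1, Bc1 or Lncenc1. Only 5 of the 9 rRNA-like rows are drawn. Of those left out, F was at 2.41 (Gm26917), 2.64 (mt-Rnr2) and 5.74 times (Gm15564) the highest other polysomal library. CT010467.1 had 13 counts in F and 0 in the other polysomal libraries.

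Levels of different transcripts were compared per kilobase of exon. In sub-polysomal RNA Bc1 led with 1618 ± 885 CPM per kb in mock and 1087 ± 355 CPM per kb in METTL7A1 cells (SD, n = 3), and did not overlap the next. A typical tested gene stood at 6.42 and 6.31 CPM per kb. In mock sub-polysomal RNA Lncenc1 (27.8 CPM per kb), Rn7sk (26.9), Rpph1 (16.9), Neat1 (5.56), Rmrp (3.70), Malat1 (2.68) and C130073F10Rik (0.997) followed, each overlapping its neighbour in this order. In METTL7A1 sub-polysomal RNA the order after Bc1 was Rpph1 (60.8 CPM per kb), Rn7sk (48.9), C130073F10Rik (14.9), Rmrp (12.9), Neat1 (9.06), Malat1 (4.96) and Lncenc1 (3.49), and of these neighbours only Rn7sk and C130073F10Rik were apart.

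In polysomal RNA the order changed. In mock cells Lncenc1 (16.8 CPM per kb) and Bc1 (11.5) overlapped at the top and lay above Malat1 (1.58), Neat1 (1.46), C130073F10Rik (1.45), Rn7sk (0.801), Rmrp (0.294) and Rpph1 (0). In METTL7A1 cells Bc1 (35.3 CPM per kb) and C130073F10Rik (14.3) came first, then Rmrp (7.76), Rn7sk (4.71) and Rpph1 (2.61), whose means rest on F, and Malat1 (2.55), Neat1 (2.43) and Lncenc1 (1.97). Neat1 and Lncenc1 did not overlap there. Libraries may capture short RNAs less completely than long ones, so a level per kb is not a molar amount. The paper gives no library method for the gradient pools, so how capture differed between the members is not known.

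Protein partners of the members were taken as lists. Between genotypes, 0.982% to 1.5% of all tested genes were called in each direction and pool, and 0 calls in short lists lie near that share. Of the 7SK partners, 0 of 7 tested genes were called in any comparison, and Larp7, which protects the 3′ end of 7SK, had the smallest genotype p (log2 -0.97 in sub-polysomal RNA, SE 0.14, adjusted p = 8.72e-05). The median log2 genotype difference of these 7 was 0.20 in sub-polysomal and 0.18 in polysomal RNA, beside 0.00 and -0.01 over all tested genes. Of the protein subunits of RNase P and MRP, 10 of 11 were tested and 0 were called between genotypes. Rpp21 was called lower in polysomal RNA of both genotypes, at -1.82 (SE 0.23, adjusted p = 5.78e-06) and -2.22 (SE 0.21, adjusted p = 1.38e-07). This was 1 of 10 tested genes, near the share of all tested genes called lower (6.86% in mock and 10.3% in METTL7A1 cells). Between genotypes Rpp21 differed by 1.00 in sub-polysomal RNA (SE 0.21, adjusted p = 0.00138).

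Of the paraspeckle and speckle proteins, 0 of 14 were called between genotypes, again near the share of all tested genes. Their median difference was -0.33 in sub-polysomal and 0.07 in polysomal RNA. Nono, a core paraspeckle protein, was called higher in polysomal RNA in METTL7A1 cells (log2 1.69, SE 0.15, adjusted p = 9.65e-08), and differed between genotypes by -0.82 in sub-polysomal RNA (SE 0.16, adjusted p = 0.000701). The pool call was 1 of 14, where 1.76% of all tested genes were called higher in METTL7A1 cells.

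Other structural RNAs were mostly too scarce to test. Among the 16 that the count file lists, 6 had no count at all, and 1 passed the filter, the small nucleolar RNA Snora73b. It was called between genotypes in sub-polysomal RNA (log2 3.16, SE 0.43, adjusted p = 3.91e-05), on 1, 6 and 14 counts in mock A, B and C against 66, 60 and 79 in METTL7A1 D, E and F. Its row overlaps the host gene Snhg3, which was called there too (log2 1.71, SE 0.21, adjusted p = 1.16e-05), so their reads may be shared. Of 9 other long non-coding RNAs tested, 5 were called lower in polysomal RNA in both genotypes (Gas5, Dancr, Pvt1, Epb41l4aos and Jpx), where 6.86% of all tested genes were in mock and 10.3% in METTL7A1 cells, and 0 were called between genotypes. Their median pool difference was -1.92 in mock and -1.57 in METTL7A1 cells, beside 0.05 and 0.06 over all tested genes. Dancr had the smallest genotype p of these 9 (log2 1.42 in sub-polysomal RNA, SE 0.22, adjusted p = 0.000108).

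The genes next to the members were compared between genotypes. Of the tested neighbours, with Malat1 and Neat1 as neighbours of each other, 0 were called in either pool. Of all tested genes, 1.5% were called higher and 1.26% lower in sub-polysomal RNA, and 0.982% and 1.15% in polysomal RNA. The 0 lies near that share. Frmd8, 4224 bases from Neat1, differed by 0.55 (SE 0.17, adjusted p = 0.0174) in sub-polysomal RNA and by -0.14 (SE 0.15) in polysomal RNA. Parp2, the poly(ADP-ribose) polymerase beside Rpph1, was lower in METTL7A1 cells (log2 -0.92, SE 0.16, adjusted p = 0.000309 in sub-polysomal RNA), unlike Rpph1. Ccdc107, 299 bases from Rmrp, differed by 0.76 (SE 0.17, adjusted p = 0.00276). Gsta4, a glutathione transferase gene near Rn7sk, differed by 1.19 (SE 0.34) and 1.18 (SE 0.24) in the pools. Ano1, a chloride channel gene 175878 bases from Bc1, had the smallest sub-polysomal p of the members' tested neighbours, at -1.21 (SE 0.20, adjusted p = 0.000221), and was at -0.65 (SE 0.17, adjusted p = 0.0112) in polysomal RNA. On the other side of Bc1, LTO1 lay 463 bases away. It differed by -0.01 (SE 0.22, adjusted p = 0.971) in sub-polysomal and -0.48 (SE 0.19, adjusted p = 0.0900) in polysomal RNA.

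The tested genes whose log2 CPM ran most like each member over the 12 libraries were listed, as a description over libraries that share groups and depth. Rn7sk ran most like Gm26917 (Pearson r = 0.968), mt-Rnr1 (0.960) and Rpph1 (0.954), and Rpph1 like Rnu3a (0.955), the small nucleolar RNA U3, Rn7sk and Ube2a (0.933). Rmrp ran like Flt3l (0.896), Rnu3a (0.845) and Stard5 (0.836). Neat1 ran like Vkorc1 (0.977), Fxyd5 (0.977) and Rps6kb2 (0.973), and Malat1 like Snord100 (0.906), Rexo5 (0.890) and C330018D20Rik (0.887). Bc1 ran like 2900076A07Rik (0.978), Gm37009 (0.977) and Rps2-ps5 (0.975). Lncenc1 ran like Ciart (0.983), Zcchc24 (0.982) and Id2 (0.981), and C130073F10Rik like Slc4a11 (0.982), Cdc25b (0.980) and Rhbdf2 (0.978). Among the members, Malat1 and Neat1 ran together at r = 0.831 and Lncenc1 and C130073F10Rik opposed each other at r = -0.951.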

How the data were processed

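Counts from 12 libraries, 3 in each of 4 groups, were analysed. The paper describes stranded, rRNA-depleted libraries for total RNA of unfractionated cells, and gives no library method for the gradient pools. Which RNA types the libraries used here retained is therefore not known from the paper. Per the labels and methods, reads were trimmed, aligned to mm10 with STAR 2.5.3a and assigned to genes of Ensembl GRCm38 with featureCounts. The submitters' processing notes also name bcl2fastq 2.20.0.422 and R 3.5.1. The deposited values are whole-number counts per gene with no normalization, beside exon lengths that the authors listed and that were used for levels per kb. No sample column was left unused.

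Groups follow the labels. The filter asked for 1 CPM or more in 3 or more libraries and left 12224 genes. After TMM scaling, edgeR 4.0.16 (R 4.3.3) estimated the 4 group means over all 12 libraries. Contrasts were tested with the quasi-likelihood test, with Benjamini-Hochberg adjustment over all genes tested. Rmrp, Rpph1, Rn7sk and C130073F10Rik passed the filter mainly through the groups where they were high. A call needed an adjusted p below 0.01 and a log2 change beyond 1.5, the limits of the study's methods. The study describes its fractionations as done in biological triplicate, but the labels tie no library to a culture, so p-values measure the spread between these libraries. Ratios of summed counts have exact 95% intervals, and the floor for a count of 0 was 3 counts over the group. Members and lists were chosen with earlier results of these data known; for that reason member values for the shift, and polysomal genotype values of Rn7sk, Rmrp and Rpph1, carry no p, although a test had been planned. The genes named were all members, their flanking tested genes, the list genes called between genotypes or with the smallest p of each list, and the 3 genes most like each member; a few genes under this rule are not reported here. Genes that overlap a member and were not tested, the list genes called between pools (Rpp21, Nono, Gas5, Dancr, Pvt1, Epb41l4aos and Jpx), Snhg3 and the rRNA-like rows were named after their values were seen.

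The pools share replicate letters, but the main fit did not use them as pairs. Deviations of same-lettered libraries correlated with r from -0.292 to 0.107, which cannot show whether they came from the same gradient. Alternatives were DESeq2 1.42.0, limma-voom (limma 3.58.1), RLE factors, library totals, Actb scaling, a filter of none or of 10 counts or more in each library, a block for the replicate letter, fits of the compared groups alone, a looser threshold of 0.05, omission of each library and, chosen after the data were seen, leaving out 9 rRNA-like rows. On simulated counts for the shift, over 11939 tested genes, the test called 76 of 99 genes changed by 2 on the log2 scale, 89 of 97 changed by 3 and 4 of 11743 unchanged genes. The group means had been brought close to each other, and genes drawn at random were changed in METTL7A1 polysomal RNA alone. These rates therefore do not cover genes with few polysomal counts or wide pool differences, such as Rn7sk, Rmrp, Rpph1 and Bc1. Figures were drawn with matplotlib 3.10.9.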

Additional observations from a re-analysis of the deposited data

How the results depend on the processing

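Counts of called genes stayed within 1.5 times the reported ones except as follows. With at least 10 counts required in each library they were 509 and 861 between pools (mock, METTL7A1) and 92 and 55 between genotypes (sub-polysomal, polysomal), since fewer genes were tested, and of the members only Malat1, Neat1 and Lncenc1 were kept. With an adjusted p below 0.05 and no limit on the change they were 5746, 7248, 3834 and 2197. For the shift, no filter gave 10 calls. Leaving out single libraries gave 606 (without mock polysomal A) to 1050 calls between pools in mock cells, and 0 for the shift each time. With the replicate letter as a block, 816 and 1383 genes were called between pools and 0 for the shift, where Bc1 was at 2.04.

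Some log2 values of members that were not called turned sign. The shift of Neat1 was -0.11 with Actb scaling. Over the libraries left out in turn, the shift ran from -0.61 to 0.13 for Malat1, from -0.28 to 0.30 for Neat1, from -0.27 to 2.05 for Rn7sk, from -1.69 to 5.01 for Rmrp and from -0.30 to 0.025 for Lncenc1. The polysomal genotype difference of Rmrp ran from -0.31 to 6.37. For Rn7sk and Rmrp the low ends are the values without METTL7A1 polysomal F. The causes were not tested. Depth limits Rmrp, Rpph1 and Rn7sk in polysomal RNA, where 5 of 6 libraries held at most 4 counts of each.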
